A study of Caenorhabditis elegans with 36 samples.

Results

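The insulin signalling pathway and 3 transcriptional regulators of lifespan that work with it were followed here through 10 genes of Caenorhabditis elegans: *daf-2*, *age-1*, *daf-18*, *pdk-1*, *akt-1*, *akt-2*, *sgk-1*, *daf-16*, *tcer-1* and *skn-1*. The genes were listed by name and matched to the gene identifiers of the count table, and all 10 were found among its 46093 genes. The count table holds 36 RNA-seq libraries made from polyadenylated RNA of whole worms, with 6 biological replicates under each of 6 labels. The libraries labelled *eat-2* (allele ad1116), *ife-2* (ok306), *osm-5* (p813) and wild type (N2, here WT20) carry the temperature 20 °C, and those labelled *glp-1* (e2141) and a second set of wild type (here WT25) carry 25 °C. *eat-2* encodes an acetylcholine receptor subunit of the pharynx, *ife-2* a form of the cap-binding translation initiation factor, *osm-5* a transport protein of sensory cilia and *glp-1* a Notch receptor of the germ line. All were labelled young adults before fertility, though the extraction notes call them adults of day 1, and were fed OP50 bacteria. The growth notes give 20 °C for every library, so how long the worms of the last pair were kept at 25 °C is not given in the sources used here. The question was whether transcripts of this pathway differ in long-lived mutants from those of wild type, and each mutant was therefore set against the wild type of its own temperature.

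In the worm, insulin-like peptides act on the receptor DAF-2, which activates the phosphoinositide 3-kinase AGE-1. The lipid that AGE-1 makes acts through the kinases PDK-1, AKT-1, AKT-2 and SGK-1, and the phosphatase DAF-18 removes it again. The kinases keep DAF-16, a FOXO transcription factor, and SKN-1, an Nrf-type factor, out of the nucleus, so that weak signalling releases both and lengthens life. TCER-1, a transcription elongation factor, is needed with DAF-16 for the long life of worms without a germ line. Much of this regulation acts on the proteins and their place in the cell, which transcript levels do not show.

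Total counts ran from 35524715 to 55878280 per library. Levels are given as CPM, the count of a gene per 1000000 counts of its library after scaling by TMM factors over the 36 libraries, and overlap between groups and the order of groups refer to this scaling. The transcripts of the genes named in the labels were checked first, and several went against them, so that groups are called by their labels throughout. *ife-2* was at 3.15 to 3.88 CPM in libraries labelled *eat-2* and at 60.7 to 77.6 CPM in libraries labelled *ife-2*, against 22.5 to 24.9 CPM in WT20 libraries. The germ granule gene *pgl-1* was at 0.0515 to 0.700 CPM in libraries labelled *ife-2* and at 223 to 316 CPM in libraries labelled *glp-1*, against 358 to 480.1 CPM in WT25 and 299.7 to 372 CPM in WT20 libraries. A *glp-1* mutation is known to remove the germ line at the restrictive temperature. Of 20 germ line markers, 20 fell in libraries labelled *ife-2*, with a summed level of 264 to 297 CPM against 5060.4 to 6578 CPM in WT20 libraries, and 11 of them stayed under 1 CPM in every library so labelled. All 18 sperm markers measured and 18 of 20 oocyte markers fell there too, while 10 of 10 body wall muscle, 9 of 10 intestine and 9 of 10 neuron markers and the other 2 oocyte markers rose, and 4 of 10 epidermis markers rose and 3 fell. Only 47 of 16298 genes differed between the libraries labelled *eat-2* and the WT25 libraries, 0.288% of those tested. Within the group labelled *osm-5*, replicate 3 stood apart, with a TMM factor of 0.427 against 0.989 to 1.06 in the other 5, and with the lowest level of all 10 genes in that group. Its summed sperm markers were 3179 CPM and its summed body wall muscle markers 33181 CPM, each the highest of the group. In whole worms, fewer cells of a type and less RNA per cell cannot be told apart.

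Per kilobase of exon, the genes differed widely in level. In WT20 libraries, *daf-18* was the most abundant, with a mean of 94.8 CPM per kb, followed by *akt-1* with 55.1, *skn-1* with 51.5, *tcer-1* with 43.8 and *daf-16* with 43.1 CPM per kb. The kinase *sgk-1*, *age-1* and *daf-2* followed with 18.6, 17.6 and 16.9 CPM per kb, and *akt-2* and *pdk-1* were lowest with 5.31 and 4.78 CPM per kb. The phosphatase that opposes the pathway was thus the most abundant transcript and the kinase PDK-1 the least. In libraries labelled *ife-2* the order was different: *akt-1* was still near the top with 20.9 CPM per kb beside *daf-16* with 33.7, *sgk-1* with 33.6 and *skn-1* with 32.2, and *daf-18* was the lowest of the 10 with 3.07 CPM per kb. Exons of 5 genes share bases with another gene (*age-1* 192 bases with B0334.10, *daf-16* 84 with H36N01.5, *skn-1* 41 with *csn-5*, *pdk-1* 15 with F21E9.2 and *akt-1* 8 with *rop-1*). Whether the counting used the strand is not stated, so that part of these 5 levels may be reads of the neighbour. In any library B0334.10 reached at most 0.57 CPM, H36N01.5 0.046 CPM and F21E9.2 1.68 CPM, whereas *csn-5* reached 62.8 CPM and *rop-1* 204 CPM.

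**Figure D1:**
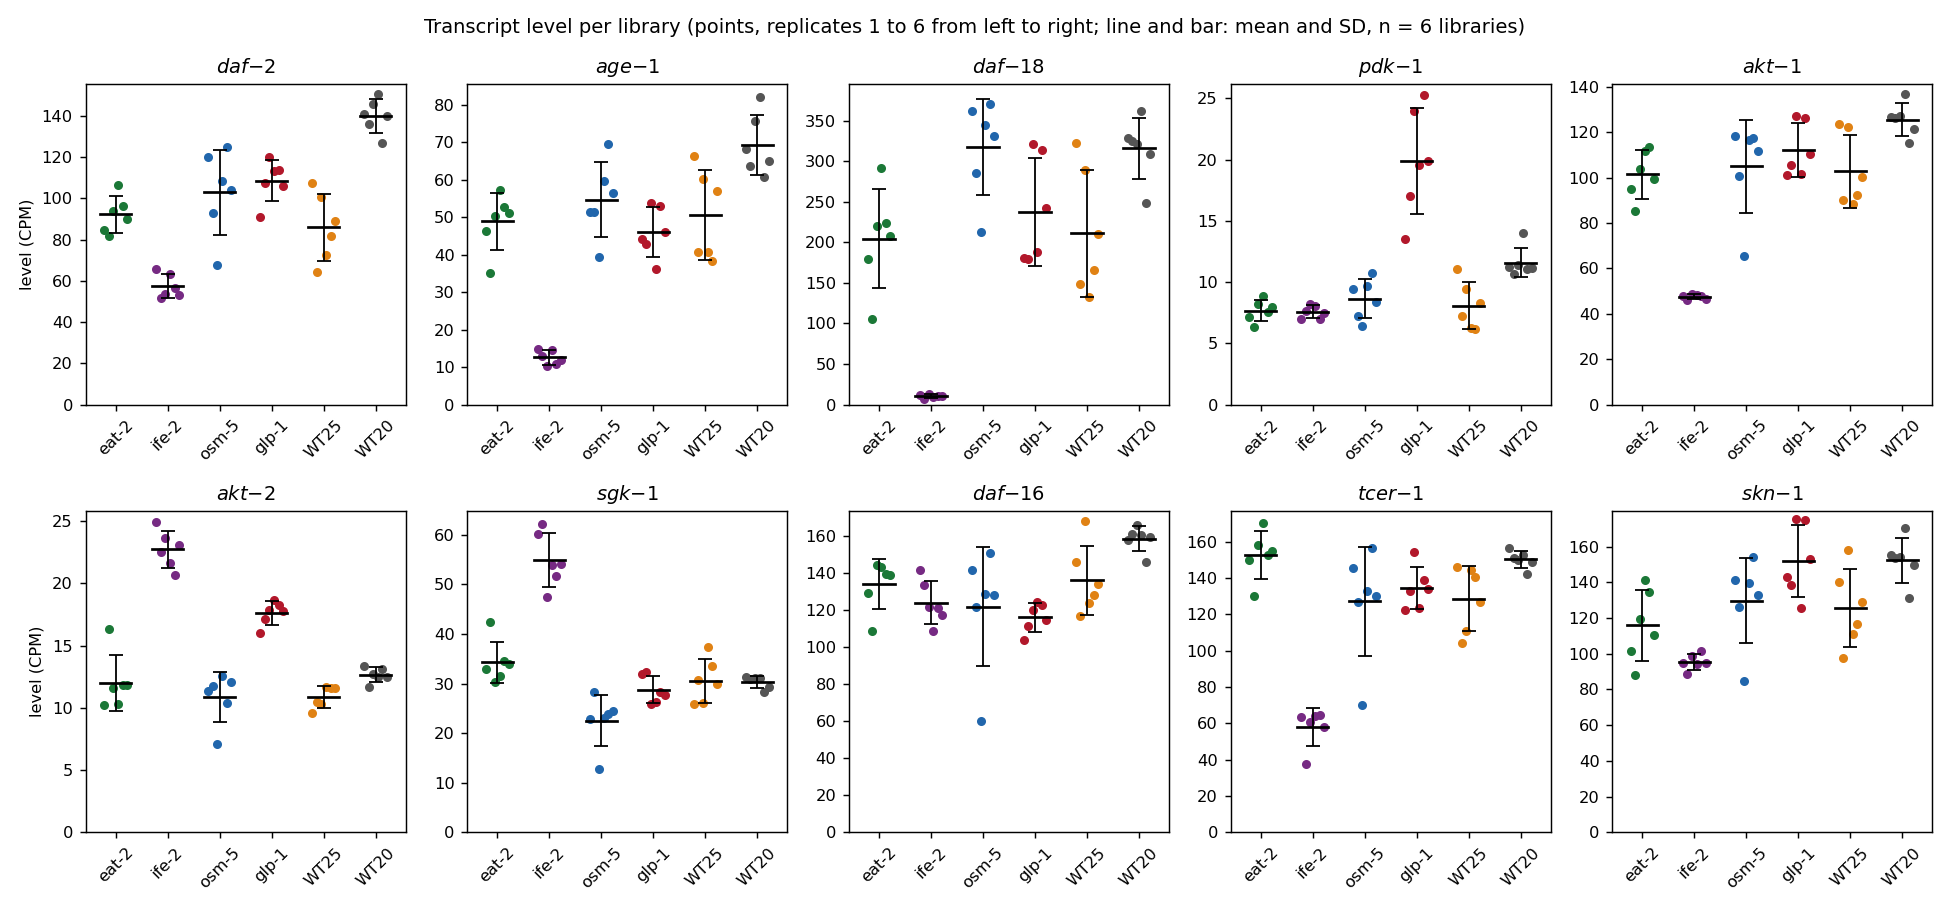
Level of each gene in CPM (y axis, from 0, a scale for each panel) in the 36 libraries by label (x axis), with the mean and SD of 6 libraries. With this TMM scaling, all libraries labelled *ife-2* sit below all WT20 libraries for *daf-2*, *age-1*, *daf-18*, *pdk-1*, *akt-1*, *daf-16*, *tcer-1* and *skn-1* and above them for *akt-2* and *sgk-1*, and replicate 3 labelled *osm-5* is the lowest of its group in every panel.

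*daf-2*, the insulin receptor gene (chromosome III, 2994514 to 3040846, minus strand, WBcel235), was highest in WT20 libraries and lower in every other group. The lowest, median and highest level of *daf-2* was 81.9, 91.99 and 107 CPM in libraries labelled *eat-2*, 51.7, 55.1 and 65.6 CPM in libraries labelled *ife-2* and 67.8, 106 and 125 CPM in libraries labelled *osm-5*, against 127, 141 and 151 CPM in WT20 libraries. All libraries of the 3 mutant labels were below all WT20 libraries, although those labelled *osm-5* overlapped WT20 libraries when scaled to markers of somatic tissues, at -0.09. The log2 fold change was -0.60 ± 0.07 (SE; edgeR adjusted p = 2.12e-05) in the *eat-2* comparison, -1.18 ± 0.07 (SE; edgeR adjusted p = 3.55e-10) in the *ife-2* comparison and -0.40 ± 0.11 (SE; edgeR adjusted p = 0.0145) in the *osm-5* comparison. The first pair passed the threshold of 0.01. The *osm-5* value passed it once replicate 3 was left out, at -0.33 (edgeR adjusted p = 0.000348), or replicate 5, at -0.45 (edgeR adjusted p = 0.00924). *daf-2* had 90.8, 110.2 and 120.0 CPM in libraries labelled *glp-1*, against 64.4, 85.2 and 107 CPM in WT25 libraries. These groups overlapped, and the change of 0.36 ± 0.12 (SE; edgeR adjusted p = 0.0313) did not pass with TMM scaling. It passed without WT25 replicate 1, at 0.42 (edgeR adjusted p = 0.00942), with total counts alone, at 0.55 (edgeR adjusted p = 0.00281), and with upper-quartile scaling, at 0.39 (edgeR adjusted p = 0.00722). Against WT20 libraries the same glp-1-labelled libraries were lower, at -0.36 ± 0.06 (edgeR adjusted p = 0.000476), so the direction depends on which wild type is the control. WT25 libraries themselves were below WT20 libraries without overlap, with a log2 fold change of -0.73 ± 0.11 (SE; edgeR adjusted p = 0.000205).

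*age-1*, which encodes the catalytic subunit of phosphoinositide 3-kinase (chromosome II, 11519328 to 11527054, minus strand), had its lowest level in libraries labelled *ife-2*. For *age-1*, the lowest, median and highest library had 35.1, 50.8 and 57.3 CPM in libraries labelled *eat-2*, 10.3, 12.4 and 14.9 CPM in libraries labelled *ife-2* and 39.4, 53.9 and 69.6 CPM in libraries labelled *osm-5*, against 60.6, 66.6 and 82.01 CPM in WT20 libraries. The ife-2-labelled libraries lay far below every other library. The log2 fold change was -2.35 ± 0.10 (SE; edgeR adjusted p = 4.48e-12) in the *ife-2* comparison, -0.50 ± 0.11 (SE; edgeR adjusted p = 0.00281) in the *eat-2* comparison and -0.29 ± 0.11 (SE; edgeR adjusted p = 0.05) in the *osm-5* comparison, of which the last did not pass. *age-1* had 36.1, 45.1 and 53.7 CPM in libraries labelled *glp-1*, against 38.4, 48.9 and 66.3 CPM in WT25 libraries. These groups overlapped, and the change of -0.11 ± 0.15 (SE; edgeR adjusted p = 0.598) did not pass. Between the wild types it was -0.47 ± 0.14 (SE; edgeR adjusted p = 0.0156), and -0.55 (edgeR adjusted p = 0.00367) without WT25 replicate 1, and it also passed with DESeq2, total counts alone and upper-quartile scaling.

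*daf-18*, the phosphatase gene (chromosome IV, 420011 to 425177, minus strand), showed the largest difference of the 10 genes. Levels of *daf-18* (lowest, median and highest) were 106, 214 and 291 CPM in libraries labelled *eat-2*, 6.23, 10.5 and 12.9 CPM in libraries labelled *ife-2* and 213, 338 and 371 CPM in libraries labelled *osm-5*, against 249, 323 and 362 CPM in WT20 libraries. Libraries labelled *ife-2* had a mean of 10.2 ± 2.24 CPM against 316 ± 37.3 CPM in WT20 libraries (SD, n = 6 each). This fall amounted to a log2 fold change of -4.84 ± 0.15 (SE; edgeR adjusted p = 7.29e-14). The libraries labelled *osm-5* overlapped those of WT20, at 0.05 ± 0.11 (SE; edgeR adjusted p = 0.735). The value of -0.62 ± 0.18 (SE; edgeR adjusted p = 0.014) in the *eat-2* comparison did not pass with TMM scaling, but passed with DESeq2, at -0.64 (DESeq2 adjusted p = 0.00199), and with total counts alone, upper-quartile and somatic marker scaling, at -0.74, -0.61 and -0.84. It also passed without replicate 2 labelled *eat-2*, at -0.47 (edgeR adjusted p = 0.00233), or replicate 4, at -0.75 (edgeR adjusted p = 0.00354). *daf-18* had 179.7, 215 and 321 CPM in libraries labelled *glp-1*, against 133, 188 and 322 CPM in WT25 libraries. Both groups were widely spread and overlapped, at 0.19 ± 0.24 (SE; edgeR adjusted p = 0.565), and between the wild types it was -0.60 ± 0.20 (SE; edgeR adjusted p = 0.0283) (-0.74 with edgeR adjusted p = 0.00378 without WT25 replicate 1).

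The spread of *daf-18* within groups went along with that of the oocyte markers. Among WT25 libraries, replicate 1 had the highest *daf-18* level, 322 CPM, and the highest summed oocyte markers, 10220.0 CPM, and replicate 4 had the lowest of both, 133 and 3748 CPM. The libraries labelled *eat-2* showed the same order at their ends, with 291 CPM of *daf-18* beside 8287 CPM of oocyte markers in replicate 4 and 106 beside 2236 CPM in replicate 2. *sgk-1* ran the other way among WT25 libraries, with 25.9 CPM in replicate 1 and 37.3 CPM in replicate 4, and was at 42.3 CPM in replicate 2 labelled *eat-2*, the highest library outside those labelled *ife-2*. Among WT20 libraries, replicate 5 was the lowest in *daf-18*, at 249 CPM, in oocyte markers, at 6251 CPM, and also in *sgk-1*. The part of the oocyte content of a sample in these levels was not tested.

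**Figure D2:**
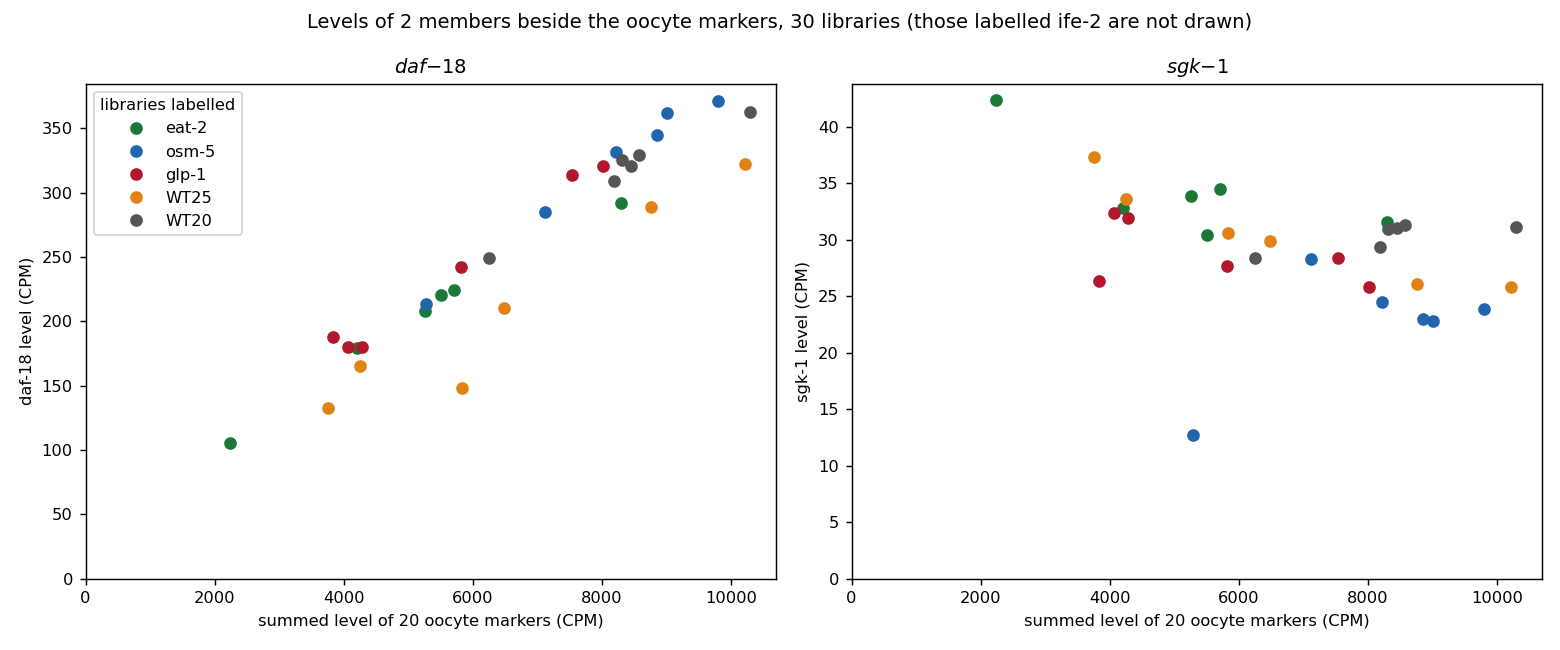
Level of *daf-18* (left) and *sgk-1* (right) in CPM (y axes) against the summed level of 20 oocyte markers in CPM (x axis) in 30 libraries, coloured by label, without those labelled *ife-2*. *daf-18* is higher in libraries with more oocyte marker transcripts, in which *sgk-1* tends to be lower, and replicate 3 labelled *osm-5* lies apart at 12.7 CPM of *sgk-1*.

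*pdk-1*, the kinase that phosphorylates AKT-1, AKT-2 and SGK-1 (chromosome X, 1321344 to 1327986, plus strand), was the gene with the largest rise in libraries labelled *glp-1*. *pdk-1* had 13.5, 19.7 and 25.2 CPM in libraries labelled *glp-1*, against 6.15, 7.76 and 11.04 CPM in WT25 libraries. All 6 libraries labelled *glp-1* were above all 6 WT25 libraries, and the log2 fold change was 1.32 ± 0.18 (SE; edgeR adjusted p = 8.81e-05). Against WT20 libraries it was 0.78 ± 0.13 (edgeR adjusted p = 0.000369). The lowest, median and highest level of *pdk-1* was 6.37, 7.75 and 8.83 CPM in libraries labelled *eat-2*, 6.98, 7.55 and 8.24 CPM in libraries labelled *ife-2* and 6.40, 8.89 and 10.7 CPM in libraries labelled *osm-5*, against 10.7, 11.2 and 13.99 CPM in WT20 libraries. The libraries labelled *eat-2* and *ife-2* did not overlap those of WT20 and were lower, at -0.59 ± 0.09 (SE; edgeR adjusted p = 0.000242) and -0.51 ± 0.07 (SE; edgeR adjusted p = 1e-05). The *ife-2* value was -0.06 (edgeR adjusted p = 0.458) with upper-quartile scaling, losing the call, and -1.51 with somatic marker scaling. Set against WT25 libraries, those labelled *ife-2* had -0.06 ± 0.14 (edgeR adjusted p = 0.688). In the *osm-5* comparison the value was -0.38 ± 0.11 (SE; edgeR adjusted p = 0.0221), and without replicate 3 it was -0.34 (edgeR adjusted p = 0.00624). The WT25 libraries were lower than those of WT20, at -0.55 ± 0.14 (SE; edgeR adjusted p = 0.00725), a call lost in 10 of 12 fits that left out 1 library, with adjusted p up to 0.0197 from edgeR.

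The 3 kinases at the end of the cascade did not move together. *akt-1* (chromosome V, 10248905 to 10252845, plus strand) and *akt-2* (chromosome X, 14147700 to 14152070, plus strand) encode the worm's AKT kinases, and *sgk-1* (chromosome X, 16254842 to 16262122, minus strand) a related kinase that also acts outside the insulin pathway. For *akt-1*, the lowest, median and highest library had 85.2, 101 and 113 CPM in libraries labelled *eat-2*, 46.1, 47.9 and 48.6 CPM in libraries labelled *ife-2* and 65.3, 114 and 118 CPM in libraries labelled *osm-5*, against 115, 126 and 137 CPM in WT20 libraries. In libraries labelled *ife-2* *akt-1* varied little and lay below every other library, with a log2 fold change of -1.30 ± 0.05 (SE; edgeR adjusted p = 8.97e-13). It was also lower in libraries labelled *eat-2*, at -0.31 ± 0.07 (SE; edgeR adjusted p = 0.0043), and without WT20 replicate 4 at -0.29 (edgeR adjusted p = 0.0116). The *osm-5* value of -0.22 ± 0.11 (SE; edgeR adjusted p = 0.13) did not pass. *akt-1* had 101, 108 and 127 CPM in libraries labelled *glp-1*, against 88.2, 96.3 and 123 CPM in WT25 libraries. These overlapped, at 0.15 ± 0.10 (SE; edgeR adjusted p = 0.291). Between the wild types the value was -0.31 ± 0.09 (SE; edgeR adjusted p = 0.0148), and it passed without WT25 replicate 1, at -0.35 (edgeR adjusted p = 0.0034), or replicate 3, at -0.35 (edgeR adjusted p = 0.00512), and with total counts alone or upper-quartile scaling.

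*akt-2* was higher in the groups labelled *ife-2* and *glp-1*. Levels of *akt-2* (lowest, median and highest) were 10.2, 11.7 and 16.3 CPM in libraries labelled *eat-2*, 20.7, 22.8 and 24.9 CPM in libraries labelled *ife-2* and 7.12, 11.6 and 12.57 CPM in libraries labelled *osm-5*, against 11.6, 12.602 and 13.4 CPM in WT20 libraries. The ife-2-labelled libraries were above all WT20 libraries, by 0.95 ± 0.06 (SE; edgeR adjusted p = 3.87e-10), though at -0.04 when scaled to markers of somatic tissues. *akt-2* had 16.02, 17.8 and 18.7 CPM in libraries labelled *glp-1*, against 9.61, 11.04 and 11.7 CPM in WT25 libraries. The glp-1-labelled libraries were above all WT25 libraries, by 0.72 ± 0.08 (SE; edgeR adjusted p = 1.9e-05), and above WT20 libraries, by 0.48 ± 0.06 (edgeR adjusted p = 2.56e-05). In the order of group means, libraries labelled *ife-2* stood above those labelled *glp-1* and these above WT20 libraries, both steps without overlap (exact permutation test, adjusted p = 0.0135 each over 50 pairs of neighbours). With total counts alone and with somatic marker scaling the libraries labelled *glp-1* had the higher mean, and with the second those labelled *ife-2* lay below WT20 libraries. The remaining values were -0.08 ± 0.10 (SE; edgeR adjusted p = 0.508), -0.17 ± 0.11 (SE; edgeR adjusted p = 0.218) and -0.24 ± 0.08 (SE; edgeR adjusted p = 0.0238) in the *eat-2*, *osm-5* and wild-type comparisons, none of which passed. With somatic marker scaling the first and the last passed, at -0.32 and -0.41. The last also passed with DESeq2, at -0.22 (DESeq2 adjusted p = 0.00806), and with total counts alone, at -0.40 (edgeR adjusted p = 0.00373).

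The lowest, median and highest level of *sgk-1* was 30.4, 33.3 and 42.3 CPM in libraries labelled *eat-2*, 47.5, 54.1 and 62.3 CPM in libraries labelled *ife-2* and 12.7, 23.4 and 28.3 CPM in libraries labelled *osm-5*, against 28.4, 30.99 and 31.3 CPM in WT20 libraries. *sgk-1* was thus highest in libraries labelled *ife-2*, which lay above every other library, by a log2 fold change of 0.96 ± 0.07 (SE; edgeR adjusted p = 9.28e-10) against WT20 libraries, though -0.04 when scaled to markers of somatic tissues. Libraries labelled *osm-5* were the lowest of the 6 groups, below those labelled *glp-1* in the order of means (exact permutation test, adjusted p = 0.0451), although with somatic marker scaling those labelled *glp-1* were the lowest and the *osm-5* value was -0.10. Their log2 fold change of -0.39 ± 0.13 (SE; edgeR adjusted p = 0.0424) passed without replicate 3, at -0.29 (edgeR adjusted p = 0.000728), when all 5 other libraries, at 22.8 to 28.3 CPM, were still below the lowest WT20 library. *sgk-1* had 25.8, 28.02 and 32.3 CPM in libraries labelled *glp-1*, against 25.9, 30.2 and 37.3 CPM in WT25 libraries. They overlapped, at -0.06 ± 0.10 (SE; edgeR adjusted p = 0.675), and the *eat-2* and wild-type comparisons gave 0.17 ± 0.07 (SE; edgeR adjusted p = 0.0467) and -0.01 ± 0.09 (SE; edgeR adjusted p = 0.932).

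Ratios of counts within a library do not depend on how libraries are scaled. The counts of *akt-2* over those of *akt-1* ran from 0.433 to 0.518 in libraries labelled *ife-2* and from 0.140 to 0.184 in those labelled *glp-1*, against 0.0778 to 0.132 in WT25 and 0.0913 to 0.114 in WT20 libraries. Hence *akt-2* took a larger part of the AKT transcripts in both of these mutant labels, without overlap with either wild type. The ratio ran from 0.0921 to 0.191 in libraries labelled *eat-2*, where replicate 2 was above all those labelled *glp-1*. In libraries labelled *osm-5* it ran from 0.0882 to 0.117. *sgk-1* over *akt-1* ran from 0.977 to 1.35 in libraries labelled *ife-2*, against 0.228 to 0.247 in WT20 libraries. *daf-18* over *age-1*, the phosphatase over the kinase that it opposes, was 0.485 to 1.25 in libraries labelled *ife-2* and 5.34 to 7.03 in those labelled *osm-5*, against 4.11 to 5.11 in WT20 libraries. The first was below and the second above every WT20 library. These ratios were chosen after the levels had been seen and were not tested.

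**Figure D3:**
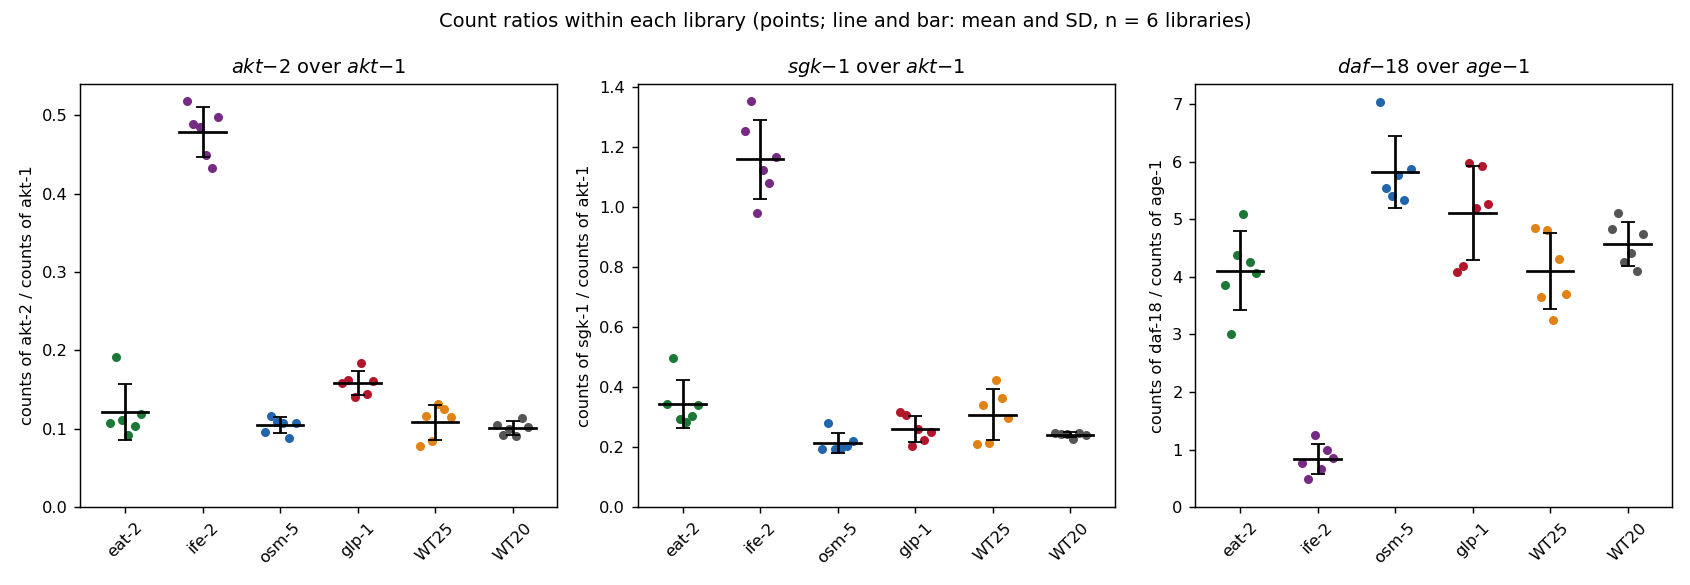
Ratio of the counts of 2 genes in the same library (y axis, from 0) by label (x axis), for *akt-2* over *akt-1*, *sgk-1* over *akt-1* and *daf-18* over *age-1*, with the mean and SD of 6 libraries. Libraries labelled *ife-2* stand apart in all 3 panels, with 0.433 to 0.518 for *akt-2* over *akt-1*, 0.977 to 1.35 for *sgk-1* over *akt-1* and 0.485 to 1.25 for *daf-18* over *age-1*.

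*daf-16*, the FOXO factor gene on which the cascade converges (chromosome I, 10750498 to 10776703, plus strand, 11 annotated transcripts counted as 1 gene), was the steadiest of the 10 with TMM scaling, with a ratio of 1.36 between its highest and lowest group mean. With somatic marker scaling this did not hold: its group means ran from 74.4 to 175.9 CPM, and those of *sgk-1* from 29.5 to 34.3 CPM. For *daf-16*, the lowest, median and highest library had 109, 139 and 144 CPM in libraries labelled *eat-2*, 109, 122 and 141.7 CPM in libraries labelled *ife-2* and 60.2, 129 and 151 CPM in libraries labelled *osm-5*, against 146, 160.3 and 166 CPM in WT20 libraries. Libraries labelled *eat-2* and *ife-2* were below all WT20 libraries, at -0.24 ± 0.07 (SE; edgeR adjusted p = 0.0152) and -0.25 ± 0.06 (SE; edgeR adjusted p = 0.00186), of which the second passed, with the opposite sign under upper-quartile scaling. The first passed without replicate 2 labelled *eat-2*, at -0.17 (edgeR adjusted p = 0.00167), and with DESeq2, total counts alone, upper-quartile and somatic marker scaling, at -0.26, -0.36, -0.22 and -0.47. The *osm-5* value was -0.34 ± 0.16 (SE; edgeR adjusted p = 0.1), and without replicate 3, which had 60.2 CPM, it was -0.23 (edgeR adjusted p = 0.00113). *daf-16* had 103.8, 117 and 125 CPM in libraries labelled *glp-1*, against 117, 131 and 168 CPM in WT25 libraries. The difference of -0.20 ± 0.09 (SE; edgeR adjusted p = 0.0872) did not pass, whereas against WT20 libraries the same libraries were lower without overlap, at -0.44 ± 0.05 (edgeR adjusted p = 1.87e-05). Between the wild types it was -0.24 ± 0.08 (SE; edgeR adjusted p = 0.0276), and -0.29 (edgeR adjusted p = 0.00211) without WT25 replicate 3. With TMM scaling no neighbours in the order of the 6 group means differed by the exact permutation test, with adjusted p from 0.0866 to 0.978. With total counts alone WT20 libraries stood above those labelled *eat-2* (exact adjusted p = 0.012), and with somatic marker scaling those labelled *glp-1* above those labelled *ife-2* (exact adjusted p = 0.0135).

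*tcer-1* (chromosome II, 7045874 to 7050071, minus strand), the elongation factor gene, was called lower only in libraries labelled *ife-2* among the 5 comparisons with TMM scaling. Levels of *tcer-1* (lowest, median and highest) were 130.1, 154 and 170.0 CPM in libraries labelled *eat-2*, 37.3, 61.8 and 64.3 CPM in libraries labelled *ife-2* and 69.9, 131 and 157 CPM in libraries labelled *osm-5*, against 141.9, 150.5 and 156 CPM in WT20 libraries. The ife-2-labelled libraries were below all WT20 libraries, at -1.27 ± 0.11 (SE; edgeR adjusted p = 2.89e-08), with replicate 2 the lowest. Libraries labelled *eat-2* overlapped those of WT20, at 0.02 ± 0.06 (SE; edgeR adjusted p = 0.757). In the *osm-5* comparison the value was -0.20 ± 0.13 (SE; edgeR adjusted p = 0.245). *tcer-1* had 123, 133 and 154 CPM in libraries labelled *glp-1*, against 103.9, 134 and 146 CPM in WT25 libraries. They overlapped, at 0.08 ± 0.10 (SE; edgeR adjusted p = 0.545), and so did the wild types, at -0.24 ± 0.09 (SE; edgeR adjusted p = 0.0417). With total counts alone the value between the wild types passed, at -0.40 (edgeR adjusted p = 0.00497).

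*skn-1* (chromosome IV, 5651039 to 5660384, minus strand), the Nrf factor gene, fell in libraries labelled *ife-2* and *eat-2*. The lowest, median and highest level of *skn-1* was 88.4, 115 and 141 CPM in libraries labelled *eat-2*, 88.6, 94.8 and 101 CPM in libraries labelled *ife-2* and 84.9, 136 and 154 CPM in libraries labelled *osm-5*, against 131, 154 and 171 CPM in WT20 libraries. The ife-2-labelled libraries were below all WT20 libraries, at -0.57 ± 0.06 (SE; edgeR adjusted p = 2.84e-07), but at -0.12 (edgeR adjusted p = 0.0542) with upper-quartile scaling, which lost the call. Those labelled *eat-2* overlapped WT20 libraries, and their log2 fold change of -0.39 ± 0.11 (SE; edgeR adjusted p = 0.0089) was not called in 8 of 12 fits that left out 1 library, with edgeR adjusted p up to 0.0223. The *osm-5* value was -0.19 ± 0.10 (SE; edgeR adjusted p = 0.165). *skn-1* had 126, 148 and 175 CPM in libraries labelled *glp-1*, against 97.8, 123 and 158 CPM in WT25 libraries. The *glp-1* comparison gave 0.30 ± 0.12 (SE; edgeR adjusted p = 0.0691), which passed with total counts alone at 0.48, and that of the wild types -0.30 ± 0.10 (SE; edgeR adjusted p = 0.0337), or -0.36 (edgeR adjusted p = 0.0061) without WT25 replicate 3. In the order of means no neighbours differed with TMM scaling (exact permutation test, adjusted p of 0.0955 or more). Libraries labelled *eat-2* stood above those labelled *ife-2* with total counts alone (exact adjusted p = 0.018) and with somatic marker scaling (exact adjusted p = 0.0135), and WT20 libraries above those labelled *osm-5* with total counts alone (exact adjusted p = 0.012).

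Across the 50 pairs of neighbours in the order of group means, 12 differed by the exact permutation test at an adjusted p below 0.05, with 0.00216 the smallest p that 6 against 6 libraries allow. Libraries labelled *ife-2* had the lowest mean of 7 genes and the highest of *akt-2* and *sgk-1*, and WT20 libraries had the highest mean of 5. By this exact test, *daf-2* in WT20 libraries stood above its next group, those labelled *glp-1* (adjusted p = 0.0135), and *pdk-1* in libraries labelled *glp-1* stood above WT20 libraries (adjusted p = 0.0197). The libraries labelled *osm-5* and *eat-2* and the WT25 libraries were mostly next to each other in these orders, and where they were neighbours no difference passed under TMM scaling. Groups further apart in an order were not compared by this test. For *sgk-1*, all libraries labelled *osm-5*, at 12.7 to 28.3 CPM, were below all those labelled *eat-2*, at 30.4 to 42.3 CPM.

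By comparison, all 10 genes were called in libraries labelled *ife-2* against WT20 libraries, 8 lower and 2 higher, where 85.1% of all genes tested were called, 7340 higher and 6810 lower. The median log2 fold change was -0.87 over the 10 genes and 0.17 over all genes. With so many genes called, the count of members is near the background, and the 20 germ line markers had a median log2 fold change of -7.51 in the same comparison, larger in size than that of any of the 10. Against WT25 libraries 8 of the 10 were called, beside 81.4% of all genes. Scaling decided 3 directions and, for *pdk-1* and *skn-1*, the call. *akt-2* and *sgk-1* were -0.04 and -0.04 when libraries were scaled to 40 markers of intestine, epidermis, muscle and neurons, and *daf-16* was 0.20 under upper-quartile scaling. The median over all genes was -0.82 under the first and 0.62 under the second, so that relative to the other genes *akt-2* and *sgk-1* were higher and the remaining 8 lower under each of these.

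**Figure D4:**
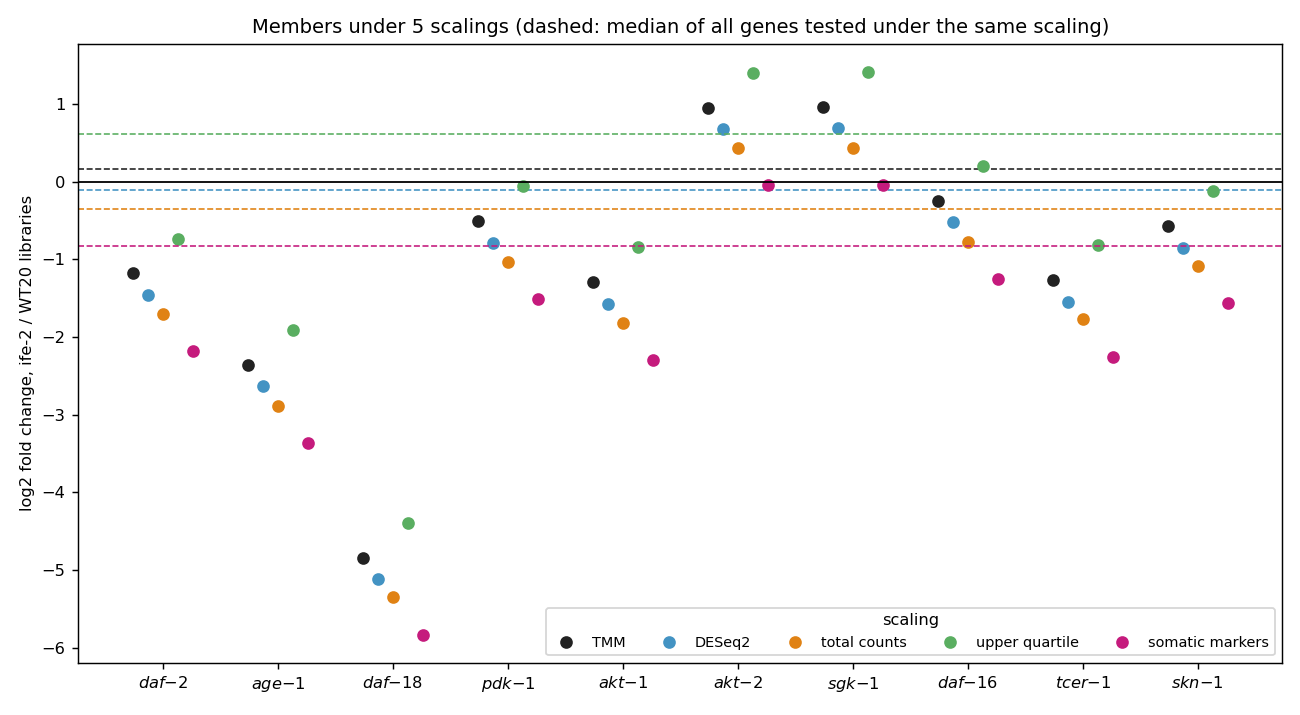
Log2 fold change between libraries labelled *ife-2* and WT20 libraries (y axis) of each gene (x axis) under 5 scalings, with the median of all genes under each scaling as a dashed line of the same colour. *akt-2* and *sgk-1* lie above the dashed line of their own colour and the other 8 genes below it, while the sign of *akt-2*, *sgk-1* and *daf-16* depends on the scaling, for example -0.04 for *akt-2* with somatic markers.

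In libraries labelled *eat-2* against WT20 libraries, 5 of the 10 genes were called, all lower (*daf-2*, *age-1*, *pdk-1*, *akt-1* and *skn-1*), beside 31.2% of all genes. Tissue markers moved in the same comparison: 10 of 10 body wall muscle, 5 of 10 intestine and 4 of 18 sperm markers rose, and 1 intestine and 3 of 20 oocyte markers fell, the oocyte list with a median of -0.65. Their part in the members' changes was not tested. The median was -0.35 over the 10 genes and 0.01 over all genes tested. Against WT25 libraries none of the 10 was called, at most 0.25 for *tcer-1*, beside 0.288% of all genes called, and *daf-2* had the opposite sign, at 0.11 ± 0.11 (edgeR adjusted p = 0.722). There 1 of the 10 had an unadjusted p below 0.05, for which the share over all genes is not given here. The WT25 libraries, which share the WT20 controls, had 2 genes called against them, *daf-2* and *pdk-1*, both lower, beside 23.9% of all genes. Of the 10, 9 had an unadjusted p below 0.05, beside 7958 of the 16506 genes tested. The median was -0.31 over the 10 genes and -0.02 over all. Side by side, the log2 fold changes in the *eat-2* comparison and that of the wild types were -0.60 and -0.73 for *daf-2*, -0.59 and -0.55 for *pdk-1*, -0.62 and -0.60 for *daf-18* and -0.50 and -0.47 for *age-1*. They were -0.31 and -0.31 for *akt-1*, -0.24 and -0.24 for *daf-16* and -0.39 and -0.30 for *skn-1*. Less alike were *tcer-1*, at 0.02 and -0.24, *akt-2*, at -0.08 and -0.24, and *sgk-1*, at 0.17 and -0.01. The likeness was not tested, and shared controls alone bring some.

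In libraries labelled *osm-5* against WT20 libraries, none of the 10 genes was called by edgeR, beside 18% of all genes. An unadjusted p below 0.05 was found for 5 of them, beside 8197 of the 16587 genes tested, and DESeq2 called 2 (*daf-2* and *pdk-1*). Without replicate 3, 4 were called, all lower (*daf-2*, *pdk-1*, *sgk-1* and *daf-16*), beside 45% of all genes. With all 6 libraries and somatic marker scaling, these 4 were at -0.09, -0.06, -0.10 and -0.06, and none of the 10 was called. Against WT25 libraries none was called by edgeR, beside 7.11% of all genes called. There 2 of the 10 had an unadjusted p below 0.05, for which the share over all genes is not given here. In libraries labelled *glp-1* against WT25 libraries, 2 were called, *pdk-1* and *akt-2*, both higher, beside 22.9% of all genes. The median was 0.17 over the 10 genes and 0.02 over all genes. Against WT20 libraries 5 were called, *pdk-1* and *akt-2* higher and *daf-2*, *age-1* and *daf-16* lower, beside 28.1% of all genes. Tissue markers differed too: summed sperm markers were at 692 to 980 CPM in libraries labelled *glp-1* and 1142 to 1259 CPM in WT25 libraries. Summed intestine markers were at 3108 to 4247 and 4967 to 5951 CPM, and the sums of the other marker lists overlapped. Their part in the members' changes was not tested.

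**Figure D5:**
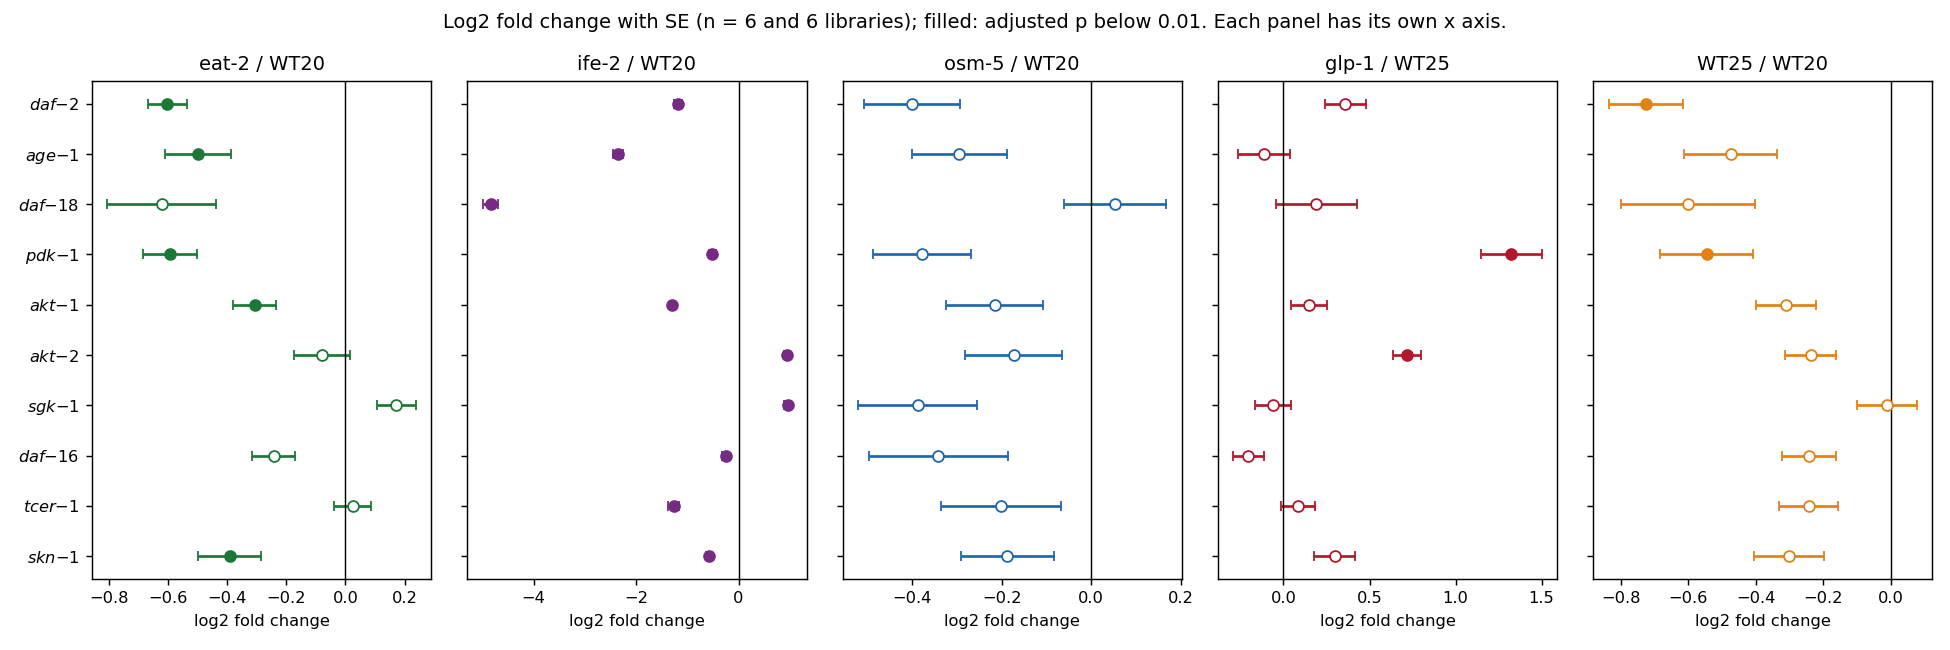
Log2 fold change (x axis, a scale for each panel) of the 10 genes (rows) in 5 comparisons, with the standard error, 6 libraries a group. Filled points passed an edgeR adjusted p of 0.01: 5 in the *eat-2*, 10 in the *ife-2*, 0 in the *osm-5*, 2 in the *glp-1* and 2 in the wild-type comparison.

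The *glp-1* comparison shares no control with those at 20 °C, so the difference of effects could be tested in 1 fit of all 36 libraries. Its effect exceeded that of *eat-2* in 4 genes, by 1.89 ± 0.20 (SE; edgeR adjusted p = 5.08e-09) in *pdk-1*, 0.94 ± 0.16 (SE; edgeR adjusted p = 2.66e-05) in *daf-2*, 0.77 ± 0.15 (SE; edgeR adjusted p = 9.48e-05) in *akt-2* and 0.67 ± 0.17 (SE; edgeR adjusted p = 0.0025) in *skn-1*, beside 24.2% of all genes called. It exceeded that of *osm-5* in 3, by 1.72 ± 0.20 (SE; edgeR adjusted p = 3.32e-08) in *pdk-1*, 0.91 ± 0.15 (SE; edgeR adjusted p = 8.2e-06) in *akt-2* and 0.78 ± 0.16 (SE; edgeR adjusted p = 0.000242) in *daf-2*, beside 37% of all genes. Against the effect of *ife-2*, 8 genes differed, beside 59.7% of all genes. The largest of these was *daf-18*, at 5.12 ± 0.32 (SE; edgeR adjusted p = 7.76e-16), and *sgk-1* had the opposite sign, at -0.94 ± 0.17 (SE; edgeR adjusted p = 8.52e-06), a call lost with total counts alone, at -0.32, and with somatic marker scaling, at -0.03. For *akt-2* the *glp-1* and *ife-2* effects, both upward, gave a difference of -0.15 ± 0.15 (SE; edgeR adjusted p = 0.366), which became 0.75 with somatic marker scaling. *pdk-1* and *daf-2* were thus the genes whose effect in libraries labelled *glp-1* differed from that of each of the 3 other labels with TMM scaling. With somatic marker scaling this held for *pdk-1* and for *akt-2*, which then differed from the *ife-2* effect by 0.75 (edgeR adjusted p = 1.12e-06). The difference of *daf-2* from the *osm-5* effect was 0.43 (edgeR adjusted p = 0.0518) under that scaling. Each effect is set against its own wild type, so these differences also hold that between the wild types, -0.73 for *daf-2*. Against WT20 libraries *daf-2* was at -0.36 in those labelled *glp-1*, beside -0.40 in those labelled *osm-5*, while *pdk-1* was higher in those labelled *glp-1* against either wild type.

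The counts of the gene lists that follow stand beside 31.2% of all genes called in the *eat-2*, 85.1% in the *ife-2*, 18% in the *osm-5*, 22.9% in the *glp-1* and 23.9% in the wild-type comparison, and 45% in that of *osm-5* without replicate 3. Of 14 further genes of the cascade that passed the count filter (18 listed: adaptors, 14-3-3 proteins, TOR complex components and genes of insulin release), 4 rose and 6 fell in libraries labelled *ife-2*, with a median of -0.09 against 0.17 over all genes. The phosphoinositide 3-kinase adaptor *aap-1* fell with its partner *age-1*, with a log2 fold change of -2.45 ± 0.07 (SE), to 7.43 ± 0.477 CPM in libraries labelled *ife-2* against 43.7 ± 3.51 CPM in WT20 libraries (SD, n = 6 each). The 14-3-3 gene *ftt-2*, whose protein binds DAF-16 in the cytoplasm, rose by 1.34 ± 0.09 (SE). With somatic marker scaling 1 of the 14 rose and 12 fell, beside a median of -0.82 over all genes. In libraries labelled *glp-1* 4 rose and none fell, with a median of 0.26 against 0.02 over all genes, among them *rict-1*, a component of TOR complex 2 that acts on SGK-1, by 0.70 ± 0.14 (SE), and *ist-1*, an insulin receptor substrate, by 0.50 ± 0.13 (SE). *rict-1* had the opposite change in libraries labelled *eat-2*, at -0.55 ± 0.10 (SE), where 1 of the 14 rose and 2 fell. These comparisons have different controls. Mean levels of *rict-1* were 64.7 CPM in libraries labelled *eat-2* and 64.4 CPM in WT25 libraries. They were 94.6 CPM in WT20 libraries and 103 CPM in those labelled *glp-1*. In the *osm-5* comparison 1 rose (*asna-1*) and 3 fell (among them *ist-1*, at -0.55), or 2 and 6 without replicate 3, and between the wild types 1 rose and 2 fell. Mean levels of *ist-1* were 4.92 CPM in libraries labelled *osm-5* and 5.76 CPM in WT25 libraries, against 7.46 CPM in WT20 libraries and 7.99 CPM in those labelled *glp-1*.

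Regulators and partners of DAF-16 moved both ways, and the changes of single genes are again log2 fold changes. Of 30 tested, 16 rose and 13 fell in libraries labelled *ife-2*, with a median of 0.42 against 0.17 over all genes. *hcf-1*, a nuclear partner that restrains DAF-16, fell by 3.26 ± 0.07 (SE), to 15.5 ± 1.43 CPM in libraries labelled *ife-2* against 159.6 ± 11 CPM in WT20 libraries, and the arginine methyltransferase gene *prmt-1* had a log2 fold change of -2.89 ± 0.06 (SE). *kri-1* and *daf-36*, which act with DAF-16 in worms without a germ line, rose by 1.10 ± 0.15 (SE) and 1.42 ± 0.09 (SE). With somatic marker scaling 1 of the 30 rose and 19 fell. In libraries labelled *glp-1* 6 rose and 1 fell, with *din-1* up by 0.61 ± 0.10 (SE) and *prmt-1* down, at -0.55 ± 0.09 (SE). *pqm-1*, a factor that alternates with DAF-16 in the nucleus, fell in 3 comparisons, with log2 fold changes of -0.81 ± 0.15 (SE) in that of *eat-2*, -1.17 ± 0.09 (SE) in that of *osm-5* and, between the wild types, -0.999 ± 0.09 (SE). Of the 30, 1 rose and 4 fell in the *eat-2* comparison, 1 rose and 2 fell in that of *osm-5* (2 and 13 without replicate 3), and 2 rose and 3 fell between the wild types. Of 15 regulators of SKN-1, 4 rose and 9 fell in libraries labelled *ife-2* (none and 12 with somatic marker scaling), 4 rose and 1 fell in those labelled *glp-1* (*sek-1*, the MAP kinase kinase upstream of SKN-1, up by 0.64 ± 0.09 (SE)), none rose and 4 fell in those labelled *eat-2*, 1 rose and none fell in those labelled *osm-5* (2 and 4 without replicate 3), and 1 rose and 2 fell between the wild types.

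Known targets of the 2 factors were measured in the same libraries, with changes again on the log2 scale. Of 27 genes known to be raised by DAF-16, 15 rose and 2 fell in libraries labelled *glp-1*, with a median of 0.53 against 0.02 over all genes, although *daf-16* itself did not pass there. *dod-3* rose by 5.02 ± 0.28 (SE), to 15.8 ± 3.16 CPM in libraries labelled *glp-1* against 0.498 ± 0.229 CPM in WT25 libraries, and the metallothionein *mtl-1* by 4.78 ± 0.61 (SE), while the desaturase *fat-7* fell by 2.12 ± 0.39 (SE). The level of *mtl-1* was 6.58 ± 6.34 CPM in libraries labelled *glp-1* against 0.240 ± 0.119 CPM in WT25 libraries (SD). Its spread in the first was thus nearly as large as its mean. In libraries labelled *ife-2*, 19 rose and 3 fell, with a median of 1.17 against 0.17 over all genes: the superoxide dismutase *sod-3* was at 15.2 ± 2.23 CPM in libraries labelled *ife-2* against 2.58 ± 0.683 CPM in WT20 libraries, and the small heat shock gene *sip-1*, which is expressed in oocytes and embryos, fell by 8.79 ± 0.43 (SE). With somatic marker scaling 11 rose and 9 fell. In libraries labelled *eat-2* 2 rose and 7 fell, with *lys-7*, a lysozyme, down, at -1.85 ± 0.19 (SE). In those labelled *osm-5* 2 rose and 5 fell, with *sod-3* up by 1.52 ± 0.21 (SE) and *lys-7* down, at -1.76 ± 0.11 (SE), and without replicate 3 5 rose and 10 fell. Between the wild types 3 rose and 11 fell, with *dod-3* down, at -4.21 ± 0.32 (SE). Against WT20 libraries, 9 of the 27 rose and 3 fell in those labelled *glp-1*, and against WT25 libraries none was called in those labelled *eat-2*.

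Genes known to be lowered by DAF-16 did not mirror these. Of 14, 11 rose and none fell in libraries labelled *ife-2* (8 and 3 with somatic marker scaling), with *dod-17* up by 3.38 ± 0.09 (SE), so that genes of both lists were higher there. Fewer did in the other comparisons: 2 rose and 4 fell of 13 in libraries labelled *eat-2*, 5 rose and 1 fell in those labelled *osm-5* (8 and 1 without replicate 3), 2 rose and 1 fell in those labelled *glp-1*, and 4 rose and 2 fell between the wild types. *dod-17* was lower in libraries labelled *glp-1* than in WT25 libraries, at -1.33 ± 0.18 (SE), and higher than WT20 in those labelled *eat-2*, at 1.58 ± 0.09 (SE), and *osm-5*, at 1.74 ± 0.14 (SE). It was also higher in WT25 than in WT20 libraries, at 1.98 ± 0.13 (SE). The rise of *pud-4* in libraries labelled *osm-5*, by 5.09 ± 1.26 (SE), had a mean of 774 ± 1612 CPM (SD), so that it varied more between those libraries than its own size. Of 20 targets of SKN-1, 14 rose and 5 fell in libraries labelled *ife-2* (8 each with somatic marker scaling), 8 rose and 2 fell in those labelled *glp-1*, 5 rose and 7 fell in those labelled *eat-2*, 5 rose and 1 fell in those labelled *osm-5* (9 and 5 without replicate 3) and 6 rose and 7 fell between the wild types. The glutathione transferase *gst-38* was at 14.4 ± 1.63 CPM in libraries labelled *ife-2* against 1.38 ± 0.263 CPM in WT20 libraries, and *gst-10* rose by 2.97 ± 0.17 (SE) there and by 1.30 ± 0.16 (SE) in those labelled *eat-2*. None of the 10 genes is in the longer lists of DAF-16 and SKN-1 responsive genes that the study used. Of the 1155 genes of its DAF-16 list that were tested, 352 rose and 42 fell in libraries labelled *glp-1*, against 880 and 120 of 1158 in those labelled *ife-2* (319 and 345 with somatic marker scaling), 175 and 217 of 1142 in those labelled *eat-2* and 139 and 159 of 1147 in those labelled *osm-5* (277 and 340 of 1144 without replicate 3). Of its SKN-1 list, 75 rose and 124 fell of 971 in libraries labelled *glp-1*, 525 and 369 of 976 in those labelled *ife-2* (233 and 472 with somatic marker scaling), 328 and 114 of 977 in those labelled *eat-2* and 82 and 198 of 981 in those labelled *osm-5* (221 and 334 of 980 without replicate 3). Against WT25 libraries, which stood in the place of WT20, none of these lists had more than 6 genes called in libraries labelled *eat-2*.

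The list counts of the other comparisons also depended on scaling. With somatic marker scaling, 4 and 0 of the cascade genes rose and fell in libraries labelled *osm-5*, the reverse of the balance above, 0 and 5 in those labelled *eat-2*, 2 and 0 in those labelled *glp-1* and 0 and 5 between the wild types. For the regulators of DAF-16 the numbers risen and fallen were 0 and 16 in the *eat-2* comparison, 4 and 2 in that of *osm-5* and 0 and 9 between the wild types, and for those of SKN-1 they were 0 and 7, 5 and 0 and 0 and 4 in the same comparisons. Of the genes raised by DAF-16, 1 and 13 rose and fell in libraries labelled *eat-2*, 3 and 5 in those labelled *osm-5*, 11 and 2 in those labelled *glp-1* and 2 and 15 between the wild types. The study's DAF-16 list had 71 and 410 in the *eat-2* and 218 and 100 in the *osm-5* comparison, and its SKN-1 list had 180 and 218 and 178 and 164. The balance of the DAF-16 list thus turned round in libraries labelled *osm-5* and that of the SKN-1 list in those labelled *eat-2* and *osm-5*. The median over all genes moved to -0.23 in the *eat-2*, 0.39 in the *osm-5* and -0.18 in the wild-type comparison under this scaling.

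Among 13502 protein-coding genes with a mean of at least 1 CPM, those whose log2 CPM followed each gene most closely were found by Pearson's r over the 36 libraries, which share label, depth and scaling, so that r describes these libraries only. For *daf-18* they were *taf-8* (r = 1.00) and *swsn-9* (r = 1.00), for *akt-1* C32D5.11 (r = 0.99) and *nhr-66* (r = 0.99) and for *age-1* *gbas-1* (r = 0.99) and *mlh-1* (r = 0.98). *tcer-1* was followed by *prp-8* (r = 0.99) and *spt-5* (r = 0.99). These 4 genes, whose largest difference was that of the libraries labelled *ife-2*, had close followers, and of the 10 genes *daf-18* and *age-1* were most like each other (r = 0.97). With each library set against its group mean that pair was at 0.74, and *akt-1* and *skn-1* were the most alike, at 0.93. Such values include replicate 3 labelled *osm-5*, the lowest of its group for all 10 genes, and were not computed without it. For *pdk-1* the nearest were *sms-2* (r = 0.97) and *gfi-3* (r = 0.96), for *daf-2* *flh-2* (r = 0.96) and *atgl-1* (r = 0.96) and for *skn-1* *clh-3* (r = 0.95) and *rilp-1* (r = 0.94). *akt-2* and *sgk-1*, the pair higher in libraries labelled *ife-2*, had F47G3.1 (r = 0.97) and C52B9.4 (r = 0.95) and *pes-4* (r = 0.97) and W09D6.5 (r = 0.97). *daf-16* had the least alike followers over the 36 libraries, *rsks-1* (r = 0.89) and *cnt-2* (r = 0.87). Once each library was set against its group mean, these were at 0.94 and 0.86, beside 0.84 for *daf-2* and *flh-2*, so that this ranking did not hold within groups. *sgk-1* and *daf-18* ran most opposite of all pairs among the 10, at r = -0.83, but at -0.28 once each library was set against its group mean, so the opposition lies mainly between the groups.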

How the data were processed

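RNA-seq was deposited for 36 libraries of whole worms, 6 under each of 6 labels, run over 3 flow cells that each held all libraries. The authors trimmed reads with cutadapt where needed, checked alignments to WBcel235 with STAR, and quantified transcripts with Salmon, and the deposited values are estimated counts per gene as whole numbers, with no normalization. Versions and the use of strand are not given in the sources used here. Salmon shares reads between similar genes, so levels of overlapping genes depend on that split. The table holds 46093 genes, of which 27472 had a count. Total counts were 35524715 to 55878280 per library (median 42821342.5), and ribosomal RNA genes took 1.35% to 11.0% of them. No column was left unmapped to a sample (0 not used).

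For each comparison of 6 against 6 libraries, genes that reached 10 counts in 6 or more of the 12 were kept, scaled by TMM and tested with edgeR's quasi-likelihood test (edgeR 4.0.16, limma 3.58.1, R 4.3.3), with Benjamini-Hochberg adjustment over all genes and a call at an adjusted p below 0.01, the study's level. The standard error was taken as the log2 fold change over the square root of F. Differences of effects were contrasts in 1 fit of all 36 libraries. Levels were set in order by group mean, and neighbours compared by a two-sided exact permutation test over 6 against 6 libraries, adjusted over 50 pairs. The mutants labelled 20 °C and the WT25 libraries share the WT20 controls. The labels call the 6 libraries biological replicates without naming separate cultures, so p-values measure the spread between these libraries.

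The members and all gene lists were chosen with earlier results of these data known. Named genes were the 10 members, the genes named by the labels with *pgl-1* as a check, the 2 highest and 2 lowest called genes without overlap between groups from each list and comparison, with a mean of at least 1 CPM, of which some are given, and the 2 genes most like each member. Positions are from the Ensembl annotation of WBcel235. The edgeR test was tried on counts simulated from the means and depths of the libraries labelled *eat-2* and WT20, with few genes changed and a fixed spread. That setting is unlike the *ife-2* comparison, in which most genes were called. Alternatives were other thresholds, DESeq2 1.42.0, other scalings, no filter, a replicate block, the other wild type and leaving out each library.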

Additional observations from a re-analysis of the deposited data

Results flagged for a closer look

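In 8 of 60 groups of 6 libraries, 1 library lay far from the other 5 by Dixon's ratio at its 95% limit, which chance passes in about 1 of 20 groups. In 4 of these it was replicate 3 labelled *osm-5*, with the lowest level: *akt-1* was at 65.3 CPM there and at 101 to 118 CPM in the other 5, *sgk-1* at 12.7 CPM and at 22.8 to 28.3 CPM, *daf-16* at 60.2 CPM and at 122 to 151 CPM, and *tcer-1* at 69.9 CPM and at 127 to 157 CPM. Replicate 2 labelled *eat-2* had the highest level of *akt-2*, 16.3 CPM, with 10.2 to 11.8 CPM in the other 5, and of *sgk-1*, 42.3 CPM, with 30.4 to 34.5 CPM in the others. That library also had the lowest sum of oocyte markers of its group, 2236 CPM. *tcer-1* was lowest, at 37.3 CPM, in replicate 2 labelled *ife-2*, with 58.0 to 64.3 CPM in the others. In WT20 libraries, *pdk-1* was highest in replicate 4, at 13.995 CPM, with 10.7 to 11.4 CPM in the others. What set these libraries apart was not tested.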

How the results depend on the processing

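Across 1260 alternative values of 80 results, 51 no longer passed, 62 newly passed and 6 reversed. The remaining 1141 kept their side of the threshold, and 42 of these changed sign with no call in either setting. The reversed values were log2 0.11 for *daf-2* in the *eat-2* comparison with WT25 as the control, -0.36 for *daf-2* in the *glp-1* comparison with WT20 as the control, -0.041 for *akt-2* and -0.041 for *sgk-1* in the *ife-2* comparison with somatic marker scaling, 0.20 for *daf-16* there with upper-quartile scaling, and 0.75 for *akt-2* in the difference of the *glp-1* and *ife-2* effects with somatic marker scaling. Of the members called, the *eat-2* comparison had 5, and 8 at an adjusted p below 0.05, 0 with at least a 2-fold change, 8 with somatic marker scaling, 3 with all 36 libraries in 1 fit, 0 with WT25 as the control and 3 to 7 when 1 library was left out. The *ife-2* comparison had 10, and 5 with at least a 2-fold change and 10 to 10 when 1 library was left out, while those fits tested fewer genes without a WT20 library. The *osm-5* comparison had 0, and 3 at an adjusted p below 0.05, 2 with DESeq2, 2 with all 36 libraries in 1 fit and 0 to 4 when 1 library was left out. The *glp-1* comparison had 2, and 1 with at least a 2-fold change, 4 with total counts alone, 5 with WT20 as the control and 2 to 3 when 1 library was left out. The comparison of WT25 with WT20 had 2, and 9 at an adjusted p below 0.05, 0 with at least a 2-fold change, 4 with DESeq2, 9 with total counts alone, 4 with upper-quartile scaling, 1 without the filter and 1 to 5 when 1 library was left out. Without replicate 3 labelled *osm-5*, the differences of effects from *eat-2*, *ife-2* and *osm-5* had 5, 8 and 3 members called. The cause of these changes was not tested. Of the pairs of neighbours in the order of levels, 12 differed, against 14 after scaling by total counts and 11 after scaling by somatic markers.

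The replicate numbers are shared by the labels, but the libraries share only a number: the correlation of deviations between libraries of the same number ran from -0.58 to 0.50. With the replicate block, 3 members were called in the *eat-2* and 1 in the WT25 comparison, and the counts of the others were unchanged.

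Scaling moved the balance of calls over all genes. Higher and lower calls were 7340 and 6810 in the *ife-2* comparison, and 2100 and 9884 with somatic marker scaling, 4479 and 7936 with total counts alone and 8843 and 5847 with upper-quartile scaling. In the *eat-2* comparison they were 3057 and 2128, and 1403 and 3805 with total counts alone and 956 and 4803 with somatic marker scaling. In the *osm-5* comparison they were 1162 and 1816, and 2873 and 1255 with somatic marker scaling, 229 and 1459 with total counts alone and 639 and 1821 with upper-quartile scaling. In the *glp-1* comparison they were 1978 and 1797, and 3160 and 857 with total counts alone. Between WT25 and WT20 they were 2139 and 1808, and 868 and 3646 with total counts alone and 817 and 2516 with somatic marker scaling. With all 36 libraries in 1 fit, 1051 genes were called higher and 1054 lower in the *eat-2* comparison, and 3380 and 2819 in that of *osm-5*. Depth did not limit the members, of which the lowest, *pdk-1*, had at least 6.15 CPM in every library, and transcript levels say nothing of the activity of the proteins.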

Other observations

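The 3 genes on the X chromosome among the 10, *pdk-1*, *akt-2* and *sgk-1*, include all of those called higher in any comparison with all its libraries and TMM scaling. *daf-2*, on chromosome III, was called higher in the *glp-1* comparison without WT25 replicate 1, at 0.42 (edgeR adjusted p = 0.00942). In libraries labelled *glp-1*, the 2354 X-linked genes tested had a median log2 fold change of 0.28, against -0.02 for the 14031 autosomal genes, with 601 X-linked genes higher and 89 lower. In libraries labelled *ife-2* the medians were 0.93 for X-linked and -0.13 for autosomal genes. *akt-2* and *sgk-1*, at 0.95 and 0.96, were thus at the middle of the X-linked genes there, and *pdk-1*, at -0.51, was below their lower quartile of 0.43. In the *glp-1* comparison *pdk-1*, at 1.32, and *akt-2*, at 0.72, were above the upper quartile of X-linked genes, 0.61. The split by chromosome was chosen after the values had been seen, and its part in these changes was not tested.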
